A study of Mus musculus with 8 samples.

Results

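Collagen-modifying enzymes and chaperones were examined in the tips of secondary alveolar septa and in whole lung of mice at postnatal day 6. The group comprised 10 genes chosen by function (prolyl and lysyl hydroxylases, the collagen chaperone and the proteins that cut the propeptides), but it was proposed with the tip-to-lung differences of these same arrays in view, where P3h3 had been among the largest increases. For that reason the tip-to-lung values of the members are a description, without p-values of their own. All probe sets with 1 annotated symbol that matched a member were taken: 13 of the 12488 probe sets of the table, covering 8 of the 10 genes. Plod1 and Plod2 had none, so their signals are not analysed here. All 13 passed the filter on dim signals and were among the 7453 probe sets tested.

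Both groups were C57/Bl6 neonates on day 6, with no allele or treatment named in the labels. The tips were cut by laser capture from frozen lung sections of many mice, and whole-lung RNA was prepared from pooled tissue, so each RNA is a pool of animals. The experiment was run on different litters in experiment 1 and in experiment 2, which gave 2 RNA samples per group, and each RNA was hybridised to 2 arrays, 8 in all. A captured tip holds several cell types, and fewer cells of a type and less RNA per cell cannot be told apart in such samples. The description field of the tip samples names whole lung, so the groups were taken from the titles.

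Collagen chains are modified while they are still unfolded in the endoplasmic reticulum. Prolyl 4-hydroxylase, made of an alpha subunit (P4ha1 or P4ha2) and protein disulfide isomerase (P4hb), makes the triple helix stable at body temperature. Enzymes of the prolyl 3-hydroxylase family modify a small set of residues, and P3h3 is placed here by family, not by measured activity. Lysyl hydroxylases (the Plod genes) prepare the sites for sugars and crosslinks. Serpinh1 encodes HSP47, the chaperone that binds the folded helix on its way out, and after secretion BMP1 cuts off the C-propeptide, helped by the enhancer protein encoded by Pcolce. In the neonatal lung, matrix made by septal fibroblasts accompanies the growth of the septa.

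Tips carried more signal for P3h3, for both probe sets of Bmp1 and for Pcolce, and in these 4 probe sets every tip array lay above every lung array. The prolyl 4-hydroxylase alpha subunits P4ha1 and P4ha2 and the lysyl hydroxylase Plod3 overlapped between the groups on all their probe sets, and so did P4hb and Serpinh1. Signals below are array intensities in arbitrary units, and differences are log2(signal + 150.09) of tips minus lung with the standard error of limma's fit, n = 2 RNA samples per group. With the threshold of an adjusted p under 0.05 over all probe sets, 4 of the 13 member probe sets were called higher in tips and 0 lower, in a comparison where 14.5% of all tested probe sets were called higher and 13.7% lower. By gene, on the brightest probe set, 3 of 8 were called higher and 0 lower, against 14.6% and 15.1% of 5642 genes. All 4 tip arrays lay above all 4 lung arrays in 4 of the 13 member probe sets and in 24.1% of all tested ones, and below in 0 and 18.0%. The contrast is the one from which the list was proposed, so nothing is read from these shares.

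**Figure D1:**
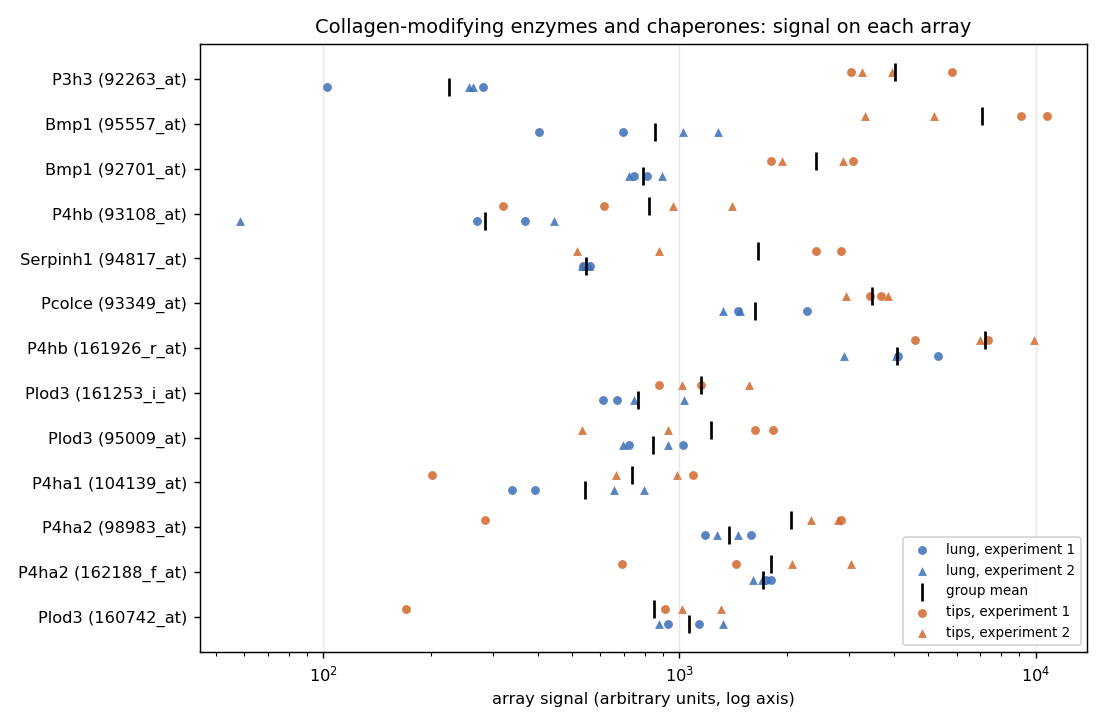
Signal of the 13 member probe sets on each of the 8 arrays (log axis, arbitrary units), with circles for experiment 1, triangles for experiment 2 and a bar at the mean of the 2 RNA samples of each group. Only P3h3, both Bmp1 probe sets and Pcolce have all 4 tip arrays to the right of all 4 lung arrays.

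P3h3, of the prolyl 3-hydroxylase family, was represented by 1 probe set (92263_at). The link of this probe set to the gene comes from an old array annotation and was not checked against probe letters. Its signal was 282 and 102 on the lung arrays of experiment 1 and 264 and 256 on those of experiment 2. On the tip arrays it was 5843 and 3037 in experiment 1 and 3959 and 3261 in experiment 2. The groups were far apart, and the lung level lay under background on all 4 lung arrays, background being the 95th percentile of 19 bacterial and yeast control probe sets on the same array. The group means were 226 ± 48.0 in lung and 4025 ± 587 in tips (SD, n = 2), the log2 difference was 3.46 ± 0.37, and against the background of each lung array the tips were at least 7.14-fold brighter. Experiment 1 gave 3.73 and experiment 2 gave 3.19. Since the lung mean alone lay under the filter on dim signals, P3h3 was tested only because of its level in tips.

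Bmp1, the procollagen C-proteinase, was higher in tips on both of its probe sets. The brighter one (95557_at) gave 696 and 404 in lung of experiment 1, 1024 and 1282 in lung of experiment 2, 9104 and 10777 in tips of experiment 1 and 5170 and 3314 in tips of experiment 2. The groups did not overlap, but the experiments differed in size: lung was lower and tips higher in experiment 1, with a log2 difference of 3.88 there and 1.73 in experiment 2 (mean 2.80 ± 0.47). The other probe set (92701_at) read 809, 744, 895 and 722 on the lung arrays, against 3064, 1805, 1944 and 2881 on the tip arrays. It gave nearly the same difference in both experiments, 1.44 and 1.40 (mean 1.42 ± 0.34). The 2 probe sets of the gene thus had the same direction and a different size.

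Pcolce, whose product raises the activity of BMP1 on procollagen, had signals of 2280, 1460, 1475 and 1322 in lung and of 3688, 3426, 2928 and 3859 in tips. The lowest tip array lay above the highest lung array. The means were 1634 ± 334 and 3475 ± 116 (SD, n = 2), a log2 difference of 1.04 ± 0.32, with 0.91 in experiment 1 and 1.18 in experiment 2. Array 2 of the tip RNA of experiment 1 had the highest background of the series (1244). Without that array the Pcolce difference was 1.07, about the same size, but it did not pass. In that fit 1597 probe sets were called, of which 3 were member probe sets, namely P3h3 and both of Bmp1.

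Promoter windows of 250 bases before and 50 after the annotated start, from RefSeq (GRCm38.p6), were found for 8 of the 10 genes, Plod1 included, and not for Bmp1 and Plod2. Those of P3h3 and Pcolce are shown as members with separate groups, and those of P4ha1 and P4hb as members whose groups overlapped. Capitals mark matches on either strand to the GC box GGGCGG, the CCAAT box CCAAT, the core of the hypoxia response element ACGTG and the TATA box TATAAA; none of the matches overlapped another.
P3h3, chr6:124857668-124857967, strand minus: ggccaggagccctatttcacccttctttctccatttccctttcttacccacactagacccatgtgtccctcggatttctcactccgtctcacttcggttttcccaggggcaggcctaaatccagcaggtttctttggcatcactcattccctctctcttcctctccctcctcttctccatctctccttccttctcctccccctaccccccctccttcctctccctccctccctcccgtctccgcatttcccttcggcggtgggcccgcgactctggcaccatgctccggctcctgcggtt
Pcolce, chr5:137611355-137611654, strand minus: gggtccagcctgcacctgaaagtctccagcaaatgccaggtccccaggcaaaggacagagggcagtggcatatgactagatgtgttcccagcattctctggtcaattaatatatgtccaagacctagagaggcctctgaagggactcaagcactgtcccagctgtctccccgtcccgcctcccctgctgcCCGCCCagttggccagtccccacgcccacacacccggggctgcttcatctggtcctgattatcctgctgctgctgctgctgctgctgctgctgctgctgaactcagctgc
P4ha1, chr10:59323046-59323345, strand plus: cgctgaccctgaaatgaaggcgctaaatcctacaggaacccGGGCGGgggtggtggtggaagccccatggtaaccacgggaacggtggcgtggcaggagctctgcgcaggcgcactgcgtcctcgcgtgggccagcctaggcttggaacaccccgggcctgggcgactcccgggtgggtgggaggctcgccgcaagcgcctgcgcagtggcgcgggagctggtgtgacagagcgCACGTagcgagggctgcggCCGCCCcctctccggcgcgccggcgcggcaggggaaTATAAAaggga
P4hb, chr11:120573204-120573503, strand minus: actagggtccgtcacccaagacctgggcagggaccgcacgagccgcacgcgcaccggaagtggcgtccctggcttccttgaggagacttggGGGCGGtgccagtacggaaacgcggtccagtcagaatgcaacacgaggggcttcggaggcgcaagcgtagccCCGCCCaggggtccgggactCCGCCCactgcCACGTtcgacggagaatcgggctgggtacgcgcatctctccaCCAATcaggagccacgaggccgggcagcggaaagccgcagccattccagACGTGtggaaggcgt

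These letters were absent from the P3h3 window, and the Pcolce window held 1 match, to the GC box. P4ha1 had 2 GC boxes, 1 hypoxia core at 16 bases before the start and 1 TATA box at base 40 after it. P4hb had 3 GC boxes, 1 CCAAT box and 2 hypoxia cores. Over the 8 member windows the hypoxia core was in 5, the GC box in 6, the CCAAT box in 2 and the TATA box in 2, while of all 32851 windows of the same length 19.6%, 35.7%, 37.4% and 13.6% held them. The member windows were between 53.3% and 70.3% G and C, against a median of 52.7% over all. A match is a description of the letters and not a binding site.

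The prolyl 4-hydroxylase genes did not separate the groups. P4ha1 (104139_at) gave 392, 339, 653 and 794 in lung and 1093, 202, 664 and 986 in tips, so that the arrays of the same tip RNA of experiment 1 lay at the top and the bottom of all 8 values. Its log2 difference was 0.25 ± 0.48. P4ha2 (98983_at) had 1587, 1178, 1273 and 1458 in lung, where the arrays were close together, and 285, 2843, 2334 and 2784 in tips. Of the tip arrays 3 were above all lung arrays and the remaining one far below them, and the difference was 0.21 ± 0.44. The brighter P4ha2 probe set (162188_f_at, whose suffix marks probes that other transcripts can share) was lower in tips of experiment 1 and higher in those of experiment 2, at -0.74 and 0.56, with a mean of -0.09 ± 0.43.

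P4hb, the beta subunit of prolyl 4-hydroxylase and a general disulfide isomerase of the endoplasmic reticulum, leaned towards tips without clearing the overlap. Its brighter probe set (161926_r_at) gave 5323, 4099, 4061 and 2893 in lung and 4601, 7360, 6969 and 9881 in tips. Only the first tip array of experiment 1 fell inside the lung range. The means were 4094 ± 872 and 7203 ± 1729 (SD, n = 2) and the log2 difference 0.77 ± 0.32, at 0.31 in experiment 1 and 1.24 in experiment 2. It was not called with the scaling used here or with median centring (0.23), but was with quantile normalization and cyclic loess, at 1.08 and 1.11. The dimmer probe set (93108_at) lay above background on 0 of 4 lung arrays and on 2 of 4 tip arrays, with a difference of 1.13 ± 0.54. Its lung mean, like that of P3h3, was under the filter on dim signals.

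**Figure D2:**
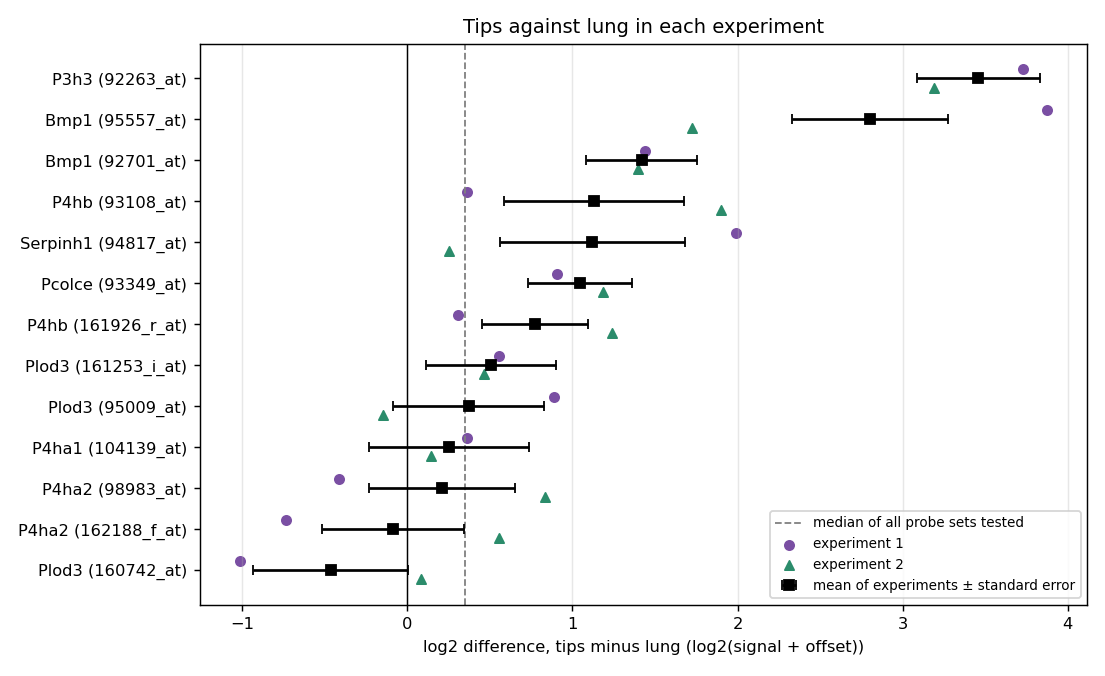
Log2 difference of tips minus lung for each member probe set in experiment 1 (circles) and experiment 2 (triangles), with the mean of both and its standard error from limma (squares and bars) and the median of all tested probe sets as a dashed line. P3h3 lies at 3.46 and Bmp1 at 2.80 and 1.42, while 4 probe sets (those of P4ha2 and 2 of Plod3) have experiments on opposite sides of 0.

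Serpinh1 showed the widest split between the experiments next to the brighter Bmp1 probe set. Its lung signals were almost constant, at 561, 537, 557 and 534. The tip signals were 2425 and 2839 in experiment 1 and 516 and 875 in experiment 2. Tips of experiment 1 were thus well above lung on both arrays, and in experiment 2 one array was just below the lung range and the other above it. The log2 differences were 1.99 and 0.25, with a mean of 1.12 ± 0.56 that was not called. Without the tip RNA of experiment 2 the difference was 1.99, and without that of experiment 1 it was 0.25.

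The 3 probe sets of Plod3, which hydroxylates lysines and also adds sugars to them, did not give one direction. The brightest (95009_at) read 1022, 723, 695 and 926 in lung and 1827, 1627, 930 and 534 in tips, with 0.89 in experiment 1 and -0.15 in experiment 2 (mean 0.37 ± 0.46). Probe set 161253_i_at gave 0.51 ± 0.39, at 0.55 in experiment 1 and 0.46 in experiment 2, with overlapping groups. Probe set 160742_at gave -0.47 ± 0.47, with a single tip array at 171 against 873 as the lowest lung array. None of the 3 was called. Without the tip RNA of experiment 2, 95009_at gave 0.93 and 160742_at -1.05, and without that of experiment 1 they gave -0.19 and 0.11.

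The tip arrays varied more than the lung arrays for most members. The SD of the log2 signal over the 4 arrays of a group was larger in tips for 12 of the 13 probe sets and for 73.3% of all tested ones, Pcolce being the exception at 0.17 in tips and 0.32 in lung. For Serpinh1 it was 1.04 in tips and 0.03 in lung, and for P4ha2 98983_at 1.35 and 0.17. In 9 of the 13 probe sets both experiments had the same sign, against 78.8% of all tested probe sets.

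The direction of the members with small differences depended on how the arrays were scaled. The median log2 difference was 0.77 over the 13 member probe sets and 0.35 over all tested ones, of which 62.1% were positive. Relative to that median, P3h3 stood at 3.11, the Bmp1 probe sets at 2.45 and 1.07, Serpinh1 at 0.77, Pcolce at 0.69 and P4hb at 0.42 and 0.78. In all, 11 of the 13 had a positive difference, but with quantile normalization, median centring and cyclic loess 7, 7 and 8 did. P3h3 and Bmp1 95557_at were called under each of these scalings, and Pcolce under none of them (0.90, 0.50 and 0.92). Bmp1 92701_at was called with cyclic loess (1.07), and not with quantile normalization (1.04) or median centring (0.88). P4ha1, P4ha2 98983_at and Plod3 95009_at turned from positive to negative under all 3, and Plod3 161253_i_at under quantile normalization and median centring.

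**Figure D3:**
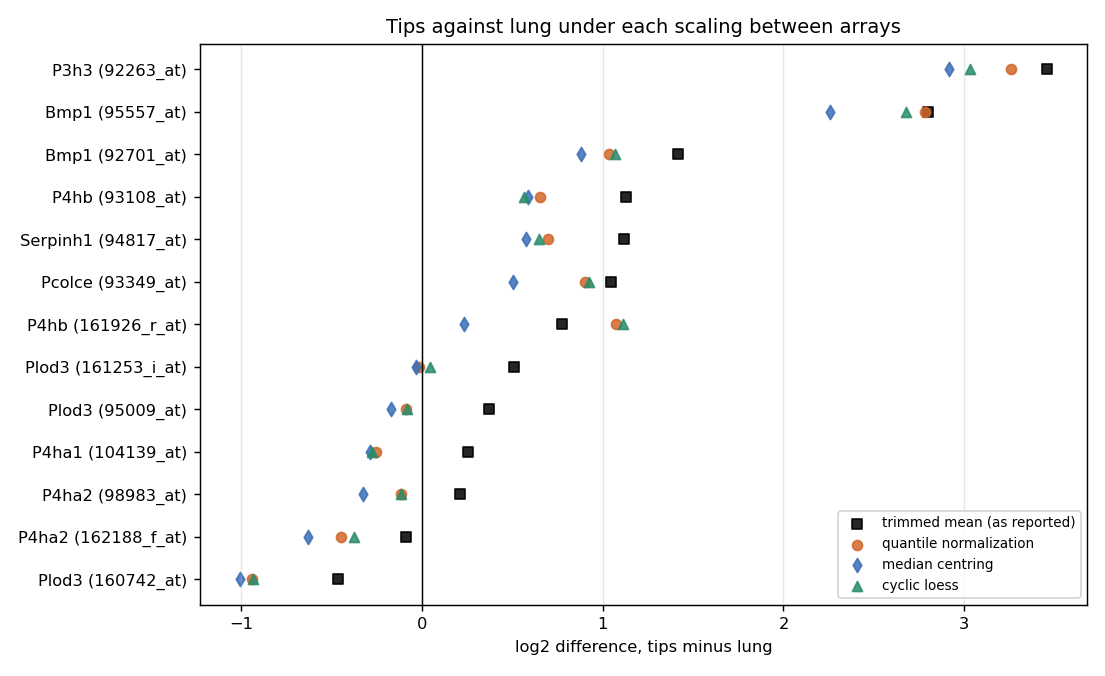
Log2 difference of tips minus lung for each member probe set with the trimmed-mean scaling reported here (squares), quantile normalization (circles), median centring (diamonds) and cyclic loess (triangles). P3h3 stays between 2.92 and 3.46 and Bmp1 95557_at between 2.26 and 2.80, whereas P4ha1 moves from 0.25 to values between -0.29 and -0.26.

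Genes that work beside the members were taken from 8 lists, none of which holds a member. With each gene read on its brightest probe set, 74 were tested, of which 5 rose and 10 fell (limma, adjusted over all probe sets), which is 6.76% and 13.5%, against 14.6% and 15.1% of all genes, and their median difference was 0.25 against 0.31 over all genes. Among partners of the hydroxylases, 1 of 6 rose and 0 fell. Ppib, the prolyl isomerase cyclophilin B that works in a complex with prolyl 3-hydroxylase 1 and CRTAP, rose from 839 ± 169 to 4101 ± 1360 (SD, n = 2). The log2 value in tips exceeded that in lung by 2.07 ± 0.36 (limma adjusted p = 0.00487), and Ppib passed under all 3 other scalings. Crtap itself gave -0.25 ± 0.31 (limma adjusted p = 0.561). P3h4, a partner of the lysyl hydroxylase complex, gave 0.15 (limma adjusted p = 0.833). P3h1 and Fkbp10 had no probe set matched here.

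Of 17 genes of folding and oxidation in the endoplasmic reticulum, 1 rose and 2 fell. Hspa5, the general chaperone BiP, had 7577 ± 640 in lung and 723 ± 261 in tips (SD, n = 2), where 2 of 4 arrays were above background, and fell by 3.25 ± 0.35 on the log2 scale (limma adjusted p = 0.00110), with -3.71 and -2.79 in the experiments. Pdia6, a disulfide isomerase, fell by 1.41 ± 0.38, and Atf4, a transcription factor of the stress response, rose by 1.00 ± 0.33. Hspa5 passed under all 17 alternative settings, Pdia6 under 12 and Atf4 under 4. Of 8 genes of export from the endoplasmic reticulum, 0 rose and 2 fell, while in the blocked fit by experiment Mia3 and Sec31a also passed as higher, at 0.96 and 1.21 (limma adjusted p = 0.0384 and 0.0447, and 0.0756 and 0.0627 without the block). Of the genes for subunits of the vesicle coat, Sec23a fell by 2.26 ± 0.50 and Sec23b fell by 2.05 ± 0.34 (limma adjusted p = 0.0126 and 0.00392), with -0.63 at another Sec23b probe set (0.265). Each passed under 15 of 17 alternatives, and Sec23a and Pdia6 did not pass with all signals under 1244 set to that value.

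**Figure D4:**
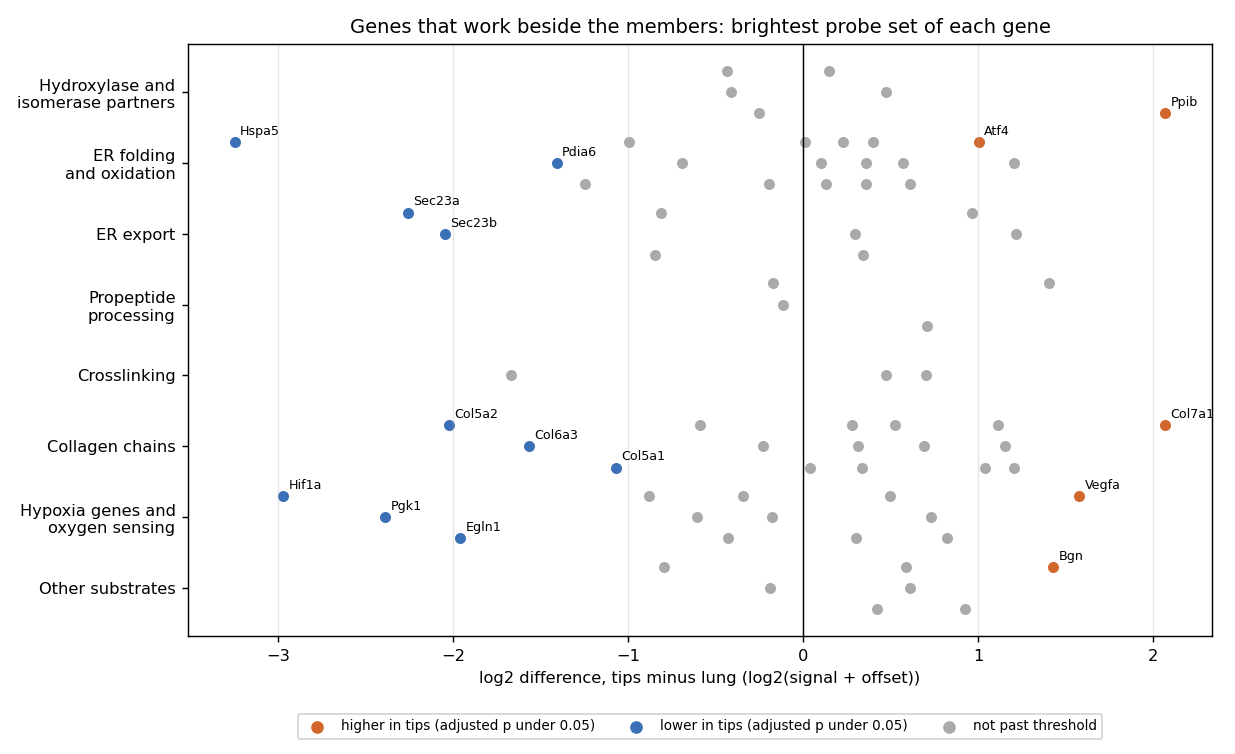
Log2 difference of tips minus lung for the brightest probe set of each tested gene in 8 lists of genes that work beside the members, coloured by whether limma's adjusted p was under 0.05. Ppib and Col7a1 lie furthest to the right, at 2.07 each, and Hspa5 and Hif1a furthest to the left, at -3.25 and -2.97.

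Of 4 genes of propeptide processing and 3 of crosslinking, 0 rose and 0 fell. Pcsk6, a proprotein convertase, gave 1.41 (limma adjusted p = 0.0664) and was under background on all lung arrays, with tips at least 2.14-fold brighter. Lox, the lysyl oxidase whose substrates are lysines and hydroxylysines, gave -1.67 ± 0.57 (limma adjusted p = 0.0542, or 0.00839 in the blocked fit by experiment) and 0.71 ± 0.39 at another probe set. The brightest Lox probe set passed as lower under all 3 other scalings. The collagen chains themselves, of which 1 of 16 rose and 3 fell, differed among themselves. Col7a1, the chain of anchoring fibrils, rose by 2.07 ± 0.32 (limma adjusted p = 0.00320), while Col5a2, Col6a3 and Col5a1 fell by 2.02, 1.57 and 1.07. Col7a1 and Col5a2 kept their calls under all 3 other scalings, and Col6a3 and Col5a1 under 1 each. How many chains were called in each direction thus depended on the scaling. Another probe set of Col5a1 had the other sign and passed, at 0.98 (limma adjusted p = 0.0478). Probe sets of Col18a1 disagreed too: the brightest gave -0.23, while a dimmer one, under background on all 4 lung arrays, was at least 3.90-fold brighter in tips (limma adjusted p = 0.00300). Further tested probe sets of Col18a1 gave 1.04 and 0.89 and were not called.

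The chains of type I and III collagen, the main substrates in lung, were not called on their brightest probe sets with the scaling used here. Col1a1 gave 0.69 ± 0.39, Col1a2 1.20 ± 0.40 and Col3a1 0.28 ± 0.36 (limma adjusted p = 0.202, 0.0518 and 0.577), and in the blocked fit by experiment Col1a2 had a limma adjusted p of 0.0342. Col4a2, a chain of basement membrane collagen, also passed in the blocked fit, at 1.11 (limma adjusted p = 0.0139, and 0.0514 without the block). Under the 3 other scalings, Col1a1, Col1a2 and Col4a2 stayed uncalled in only 1 each and passed as higher in the rest. Col3a1 stayed uncalled in all 3. Dimmer probe sets of Col1a2 and Col3a1 passed, at 1.29 and 1.12 (limma adjusted p = 0.0122 and 0.0304). Of 7 other substrates of the members, 1 rose: Bgn, whose propeptide BMP1 removes, by 1.43 ± 0.32 (limma adjusted p = 0.0131), with 0.51 at another probe set.

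P4ha1, P4ha2 and some Plod genes are known targets of hypoxia-inducible factors, so genes of oxygen sensing were set beside them. Of 13 tested, 1 rose and 3 fell. Hif1a fell by 2.97 ± 0.41 on its brightest probe set and by 3.03 on another (limma adjusted p = 0.00197 and 0.00168), both with a suffix that marks probes other transcripts can share. The prolyl hydroxylase gene Egln1 fell by 1.96 ± 0.34 and the glycolytic gene Pgk1 by 2.39 ± 0.31 (limma adjusted p = 0.00487 and 0.00168), while Vegfa rose by 1.58 ± 0.39 (0.0188). Vegfa passed under none of the 3 other scalings and under 9 of 17 alternatives, and Hif1a and Pgk1 passed under all 17.

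By the pattern of log2 signal over the 8 arrays, the genes most like P3h3 were Gna11 (Pearson r = 0.997), Ddx39b and Taok3 (0.992 each), Fgd1 (0.990) and Tbx2 (0.989), all outside the group. For Plod3 160742_at, which had the lowest difference of the group, they were Nr2f1 (0.977), Ndufv2 (0.970), Pbx3 (0.968), Rbm4b (0.961) and Cops7a (0.961). These are descriptions over 8 arrays of 4 RNA samples, which share RNA in pairs.

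Features of the arrays and marker lists are given by group. Median signal lay between 501 and 571 in lung and between 786 and 923 in tips, and background between 314 and 568 in lung and between 487 and 1244 in tips. The ratio of the 3′ to the 5′ control probe set of Gapdh was 1.95 to 5.49 in lung and 4.18 to 12.8 in tips, and that of actin 38.8 to 104 in lung and 23.0 to 139 in tips. Of 8 matrix fibroblast markers, 0 were called, and their summed signal was 69251 to 96606 in lung and 123144 to 131790 in tips. Col1a2 alone went from a mean of 30383 to 68748. Col1a1, Col3a1 and Fn1 also had positive differences, while Pdgfra, Dcn, Lum and Tcf21 had negative ones, at -0.83, -0.79, -0.12 and -0.12. Of 6 smooth muscle and myofibroblast markers 4 rose, with sums of 14987 to 39892 in lung and 27988 to 43871 in tips. Endothelial markers rose in 3 and fell in 1 of 6 (Emcn, -1.64), with sums of 45634 to 51215 in lung and 56214 to 82795 in tips. The type II cell markers gave 1 rise among 3, with sums of 22518 to 38019 in lung and 99039 to 115006 in tips. Sftpc alone went from a mean of 27130 to 102537, while Sftpb and Sftpd gave 0.69 and 0.42 and were not called. Leukocyte markers had 2 decreases among 5 (Ctss, -3.05, and Ptprc, -1.95), while Cd68, Lyz2 and Cd14 gave 0.72, 0.60 and 0.25, not called. The leukocyte sums were 45789 to 65935 in lung and 25648 to 35089 in tips. Ctss alone went from a mean of 34692 to 4041. Of 3 cartilage markers with a probe set, 0 passed the filter on dim signals, 0 were above background on all arrays of either group, and Matn1 was under it on all 8. Type I cell markers had 1 decrease among the 2 tested (Hopx, -1.76), while the other, Ager, gave 0.89 and was not called. The type I sums were 39720 to 49989 in lung and 18200 to 28185 in tips. Hopx alone went from a mean of 38400 to 11226. Airway markers rose in 2 of 3, with sums of 14524 to 24475 in lung and 32993 to 83794 in tips. Scgb1a1 alone went from a mean of 17323 to 53091. Of 2 erythroid markers tested, 0 were called, with sums of 5738 to 28902 in lung and 13104 to 74778 in tips. The 1 mesothelium marker tested was not called, and the sums of that list were 1854 to 2291 in lung and 1519 to 4095 in tips. The part of these features in the members' differences was not tested.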

How the data were processed

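The deposited tables hold linear intensities of each probe set, which the authors computed with MAS5 (version not given in the sources used here) per the submitters' processing notes. The 2% trimmed mean was about 1501 on every array, so the authors had scaled the arrays to a common level. Labels name amplification for all tip arrays and 1 lung array, while the design text describes parallel amplification of both tissues.

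Arrays were scaled to a trimmed mean of 1500.9, and log2 was taken after adding 150.09, which understates differences of dim probe sets. The 66 control probe sets and those under the 40th percentile of mean log2 signal were left out. The 2 arrays of each RNA were averaged. Tips and lung were tested against each other in R 4.3.3 with limma 3.58.1, using eBayes with an intensity trend, Benjamini-Hochberg adjustment and a threshold of 0.05. The fit had 2 residual and 7.05 prior degrees of freedom, the median standard error was 0.397, and precision is limited by the small number of RNA pools and arrays. Each group gave 2 RNA pools, and the p-values measure only spread between pools, drawn for each probe set towards the intensity trend over all tested probe sets. The procedure was tested on simulated data.

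Symbols came from the array annotation, which names 1 gene for 10855 probe sets, several for 396 and none for 1237, and 10839 were updated by gene ID to GRCm38.p6 RefSeq symbols. No genome build of the arrays is given in the sources used here. Named genes were all member probe sets, list genes past the threshold (up to 6 per direction and list) and Lox, Crtap, P3h1, Ppib, Fkbp10, Hspa5, Col1a1, Col1a2 and Col3a1 whatever their values. P3h4, Pcsk6 and further probe sets were named after their values were seen. Members and lists were chosen with earlier results of these data known. A fold against a group under background on all its arrays used, per array, the higher of background and signal. The experiment number marks shared processing in the design text and so pairs the RNA samples; across probe sets, same-numbered tip and lung deviations had a correlation of 0.0452.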

Additional observations from a re-analysis of the deposited data

Results flagged for a closer look

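Over 26 sets of 4 arrays (13 member probe sets in each group), 2 held an array set apart from the others, where chance gives about 1 in 20. For P4ha2 98983_at, array 1 of the tip RNA of experiment 1 read 285 while the nearest tip array read 2334, a gap of 0.903 of the whole log2 range. Array 2 of the same RNA read 2843. For P3h3 in lung, array 2 of experiment 1 read 102 and the nearest 256, a gap of 0.886 of the range, and all 4 values lay under background. The arrays of a group are pairs from 2 RNA samples, so these gaps lie between repeats of the same RNA as well as between RNAs.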

How the results depend on the processing

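Leaving out 1 RNA sample at a time moved the counts most: the total of called probe sets ranged from 349 to 3324 around 2106, that of member probe sets from 2 to 7 around 4 and that of genes in the pathway lists from 5 to 33 around 15. In these fits the spread of the lone RNA is assumed to be that of the other group. The low ends came without the lung RNA of experiment 1 (349, 2 and 5) and the high ends without the tip RNA of experiment 2, and without the lung RNA of experiment 2 the counts were 556, 2 and 8. With all signals under the highest background (1244) set to it, 826 probe sets and 2 member probe sets were called. With array 1 of each RNA alone the counts were 1229 and 2, and with median centring 1783 and 2. P3h3 and Bmp1 95557_at passed under all 17 settings (range 1.54 to 4.10 and 2.19 to 3.42), Bmp1 92701_at under 10 (0.85 to 1.60) and Pcolce under 7 (0.50 to 1.30), and none of these 4 changed sign. Since the members came from this same contrast, these counts describe the processing and support nothing about the group. Higher calls made up 51.5% of the total, and 37.3%, 15.2% and 41.1% with quantile normalization, median centring and cyclic loess, where the median difference was 0.03, -0.19 and 0.05 in place of 0.35. With the experiment as a replicate block, 2452 probe sets were called, 2098 of them also called without it, and the same 4 member probe sets passed; in the pathway lists 9 rose and 11 fell in place of 5 and 10. The floor at the second highest background (792) and the fit without array 2 of the tip RNA of experiment 1 were chosen after seeing the data. With either floor P4ha1 was not tested. Apart from the settings given, the cause of these shifts was not tested. Signals near background, such as P3h3 in lung, limit how large a difference can be stated.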
